A study of Mus musculus with 10 samples.

Results

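Chemokine ligands are small proteins that attract leukocytes through receptors on the cell surface. 9 of their genes were followed in Ly6Chigh splenic monocytes, chosen by name from 24421 gene symbols measured in every library. They are Cxcl9, Cxcl10, Ccl2, Ccl3, Ccl4, Ccl5, Ccl7, Cxcl2 and Cxcl16. RNA sequencing covered 10 libraries from spleens taken on day 5 after surgery. WT mice (strain C57BL/6) had sham surgery, a thoracotomy without ligation (n = 3, replicates 1 to 3), or myocardial infarction (MI), in which the left anterior descending coronary artery was tied permanently (n = 3, replicates 2 to 4). Foxp3DTR mice, in which the Foxp3 promoter drives a human diphtheria toxin receptor, had MI (n = 4, replicates 1 to 4). All mice were young adult males, and all received buprenorphine at 0.1 mg/kg. The protocol for removing Foxp3+ regulatory T-cells (Tregs) used 500 ng diphtheria toxin per mouse on each of the last 2 days before surgery and 250 ng on day 2 after it. The study describes toxin-treated WT mice as the counterpart of the Foxp3DTR mice after MI, but the labels do not give toxin per library. Genotype and Treg loss cannot be told apart in these groups, and Foxp3-expressing cells carry the receptor in all organs of the animal. B-cells, T-cells and red cells were removed on magnetic columns, and cells positive for CD11b, F4/80 and CD115, high for Ly6C and negative for Ly6G were then sorted.

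Inflammatory chemokines are made at low levels by resting monocytes and at high levels after cytokine or pattern-receptor signals. CXCL9 and CXCL10 bind CXCR3 on activated T-cells and NK cells, and interferon gamma (IFN-γ) is their best known inducer, acting through JAK kinases. CCL2 and CCL7 bind CCR2, through which Ly6Chigh monocytes leave the bone marrow and enter inflamed tissue. CCL3, CCL4 and CCL5 attract monocytes, T-cells and NK cells, and CCL3 and CCL5 bind CCR1. CXCL2 attracts neutrophils through CXCR2, and CXCL16, a membrane-anchored ligand that can be shed, binds CXCR6. In the infarcted heart such ligands guide neutrophils, monocytes and lymphocytes into the wound.

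The files gave TPM, a level already divided by gene length and set to a fixed total per library, so that levels of different genes can be compared. Values below are TPM scaled so that the median gene is equal between libraries, and changes are on the log2 scale of scaled TPM + 1. Depth, inferred from the coverage in the files, was 3130000 to 8400000 reads per library. The study's methods state a larger number of sequenced reads than any of these. The difference was not explained here, and read numbers below rest on the coverage. The shallowest library was sham replicate 2. Classical monocyte markers were abundant in all libraries: the 10 genes summed to 37670 to 51330 scaled TPM after sham surgery, 42610 to 47330 after MI in WT mice and 24210 to 38510 in Foxp3DTR mice. Marker sums of cells outside the gate were below these in every library, but several moved with the groups. The 14 T-cell genes summed to 26.2, 42.1 and 226 in the sham libraries, 22.0, 26.3 and 25.6 in WT mice after MI, and 52.2, 172, 109 and 161 in Foxp3DTR mice. The 10 NK cell genes summed to 69.6, 97.2 and 223, then 63.1, 97.9 and 45.1, then 110, 181, 192 and 228 scaled TPM in the same order. The 12 neutrophil genes summed to 587 to 1482, 377 to 615 and 1264 to 2857 in the same order of groups. In WT mice after MI the highest means of this list were those of Csf3r (179) and Mmp8 (164). Between Foxp3DTR and WT mice after MI, 11 of its changes were positive, and 1, Csf3r, was negative (-0.27). By limma 3 of these genes were called higher at an adjusted p under 0.05, against 0.688% of all genes. They were S100a9, Camp and Ngp, with changes of 4.1, 4.9 and 4.7. In the same comparison 1 NK cell gene, Klrk1, was called higher and 1 B-cell gene, Cd79b, lower, against 0.433% of all genes called lower. All 14 T-cell changes and 9 of 10 NK cell changes were positive. Sham replicate 3 was the highest sham library for the T-cell, NK cell and neutrophil sums. In WT mice after MI the defining genes Pax5 (B-cells), Mzb1 and Tnfrsf17 (plasma cells) and Retnlg (neutrophils) were listed at 0 in all 3 libraries, and no T-cell or NK cell gene was. The highest sum in any library was 28.7 scaled TPM for B-cells, 23.7 for platelets, 127 for red pulp macrophages, 38.7 for basophils and mast cells, 225 for plasma cells and 167 for erythroid cells. The dendritic cell sum was 15.2 to 29.4 scaled TPM in Foxp3DTR mice and 49.2 to 75.3 in WT mice after MI, where Flt3 and Cd209a made most of it, but of its 7 genes 4 had positive changes and 3 negative ones. In such bulk samples fewer cells of a type and less RNA per cell cannot be told apart.

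Cxcl9 was the ligand that differed most between the groups. It measured 6.85, 3.96 and 31.5 scaled TPM in the sham libraries, 2.47, 3.79 and 2.33 in WT mice after MI, and 40.5, 47.8, 37.0 and 39.0 in Foxp3DTR mice after MI. All 4 Foxp3DTR libraries lay above all 6 WT libraries, and sham replicate 3 was the WT library nearest to them. The means were 14.1 ± 15.2 (SD, n = 3), 2.86 ± 0.806 (n = 3) and 41.1 ± 4.69 (n = 4). About 12 to 264, 11 to 30 and 251 to 369 reads stood behind the values of the 3 groups, so that the level in WT mice after MI rested on few reads. In Foxp3DTR mice Cxcl9 rose against WT mice after MI by 3.46 on the log2 scale (SE 0.50), or 11-fold with a 95% interval from 5.11 to 23.6, at an adjusted p of 0.020 by limma. Its p-value ranked 19 among 12938 tested genes. Leaving out any library of WT mice after MI, or replicate 1, 2 or 3 of the Foxp3DTR mice, kept the change between 3.36 and 3.63 and raised the adjusted p to 0.0548 to 0.0692. In those fits 0 to 0.218% of all genes were called higher, against 0.688% with all libraries. Without any sham library in the fit the adjusted p was 7.05e-05, and without sham replicate 3 alone it was 7.9e-05.

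Cxcl10 was more abundant than Cxcl9 in every library, and its libraries were more scattered. The sham libraries held 11.7, 29.7 and 59.0 scaled TPM, WT mice after MI 20.6, 35.6 and 7.21, and Foxp3DTR mice 49.1, 92.3, 102 and 84.6. The Foxp3DTR libraries lay above all libraries of WT mice after MI, but the lowest of them was below sham replicate 3. Group means were 33.5 ± 23.9 (SD, n = 3), 21.1 ± 14.2 (n = 3) and 82.0 ± 23.0 (n = 4). The difference between Foxp3DTR and WT mice after MI was 2.10 (SE 0.56), a 4.3-fold ratio with a 95% interval from 1.81 to 10.2. It did not pass the threshold over all genes, with an adjusted p of 0.0977 by limma. The call depended on the fit: with only the groups compared in the fit the adjusted p was 0.0424, without scaling it was 0.0455, and without replicate 4 of the WT mice after MI it was 0.25.

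The CXCR3 ligand genes are neighbours on chromosome 5. The files place Cxcl9 at chr5:92321331-92328079 and Cxcl10 at chr5:92346639-92348889 in mm10, both on the minus strand and 18559 bp apart. Cxcl10 lies within the span of Art3, at chr5:92331841-92414627, whose group means were 0.282 to 0.47 scaled TPM. Reads of overlapping genes cannot be separated here, but the level listed for Art3 was far below that of Cxcl10. Cxcl11, the remaining CXCR3 ligand gene, starts at position 92359545 on the same chromosome, and its group means were 0.164 to 0.404 scaled TPM, too low to be tested. Of 9 other genes within 100 kb of the members on chromosome 5, 6 were tested, and 0 were called in any of the 3 comparisons. The flanking genes Naaa and Sdad1 had changes of 0.20 and 0.17 (adjusted p = 0.492 and 0.391, limma) between Foxp3DTR and WT mice after MI.

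The promoters of this pair are shown because their genes differed most between Foxp3DTR and WT mice, and that of Cxcl2 because it shares a motif with Cxcl10. Only Cxcl9 was called between Foxp3DTR and WT mice after MI, and Cxcl10 and Cxcl2 were not. RefSeq (GRCm38.p6) promoters, 250 bases before to 50 after the gene start, were matched for 4 of the 9 members, Cxcl9, Cxcl10, Cxcl2 and Ccl3. Each is written 5′ to 3′ on the strand of its gene. They span chr5:92328030-92328329 (Cxcl9, minus strand), chr5:92348840-92349139 (Cxcl10, minus strand) and chr5:90903649-90903948 (Cxcl2, plus strand). Capitals mark matches to 4 motifs searched on both strands: the IFN-γ-activated site GAS (TTCNNNGAA), the interferon-stimulated response element ISRE, the AP-1 site (TGANTCA) and the 10-base NF-κB site.
Cxcl9: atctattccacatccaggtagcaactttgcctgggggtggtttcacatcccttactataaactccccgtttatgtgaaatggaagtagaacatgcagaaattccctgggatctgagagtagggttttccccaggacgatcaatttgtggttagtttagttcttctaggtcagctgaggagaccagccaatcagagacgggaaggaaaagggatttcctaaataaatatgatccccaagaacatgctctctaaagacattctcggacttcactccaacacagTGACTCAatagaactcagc
Cxcl10: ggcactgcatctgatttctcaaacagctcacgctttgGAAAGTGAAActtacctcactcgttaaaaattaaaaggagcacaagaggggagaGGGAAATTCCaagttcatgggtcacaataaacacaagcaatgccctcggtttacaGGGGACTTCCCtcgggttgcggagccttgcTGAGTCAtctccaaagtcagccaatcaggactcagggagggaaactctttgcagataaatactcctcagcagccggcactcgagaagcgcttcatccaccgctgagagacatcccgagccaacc
Cxcl2: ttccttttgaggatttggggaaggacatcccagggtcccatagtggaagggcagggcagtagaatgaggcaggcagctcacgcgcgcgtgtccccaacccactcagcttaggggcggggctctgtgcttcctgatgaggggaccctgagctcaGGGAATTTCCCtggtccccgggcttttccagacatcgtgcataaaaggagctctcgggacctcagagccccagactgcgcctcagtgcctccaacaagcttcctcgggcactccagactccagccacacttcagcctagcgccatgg

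The Cxcl10 window held an ISRE match starting 213 bases before the gene start, NF-κB matches at 159, 104 and 103 bases (the last 2 overlap) and an AP-1 match at 74 bases. The Cxcl9 window held an AP-1 match at base 32 after the start. The Cxcl2 window held overlapping NF-κB matches at 97 and 96 bases before the start, and the Ccl3 window held 0 matches to these letters. Among all 32851 promoters of the table, 8.3% held a GAS match, 3.44% an ISRE match, 8.46% an NF-κB match and 7.81% an AP-1 match. A match describes the letters of the window and is not a bound site.

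Ccl5 had the highest mean of the 9 ligands after sham surgery and in Foxp3DTR mice. Cxcl10 was above it in Foxp3DTR replicates 1, 2 and 3 (49.1, 92.3 and 102 scaled TPM), and Ccl3 was above it in sham replicate 2 (76.7). Ccl5 is made by T-cells and NK cells as well as by myeloid cells. Levels were 33.1, 73.4 and 177 scaled TPM in the sham libraries, 27.4, 31.9 and 27.5 in WT mice after MI, and 43.5, 89.3, 81.7 and 150 in Foxp3DTR mice. The WT libraries after MI sat close together below all other libraries, whereas the sham and Foxp3DTR ranges overlapped. Means were 94.5 ± 74.2 (SD, n = 3), 28.9 ± 2.54 (n = 3) and 91.1 ± 44.1 (n = 4). The Foxp3DTR mice differed from WT mice after MI by 1.49 (SE 0.50, 2.82-fold, 95% interval 1.3 to 6.1), with an adjusted p of 0.168 by limma. With only the 2 groups compared in the fit the adjusted p was 0.0468. The library with the highest Ccl5, sham replicate 3, was also the library with the highest T-cell marker sum, and Foxp3DTR replicate 1 had the lowest Ccl5 and the lowest T-cell, NK cell and neutrophil sums of its group. Within the Foxp3DTR mice Cxcl9 was highest in replicate 2 (47.8), which had the highest T-cell sum, while replicate 1, with the lowest sums, held 40.5 and replicate 4, with the highest NK cell and neutrophil sums, 39.0 scaled TPM. The part of these cells in the levels of Cxcl9, Cxcl10 and Ccl5 was not tested.

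**Figure D1:**
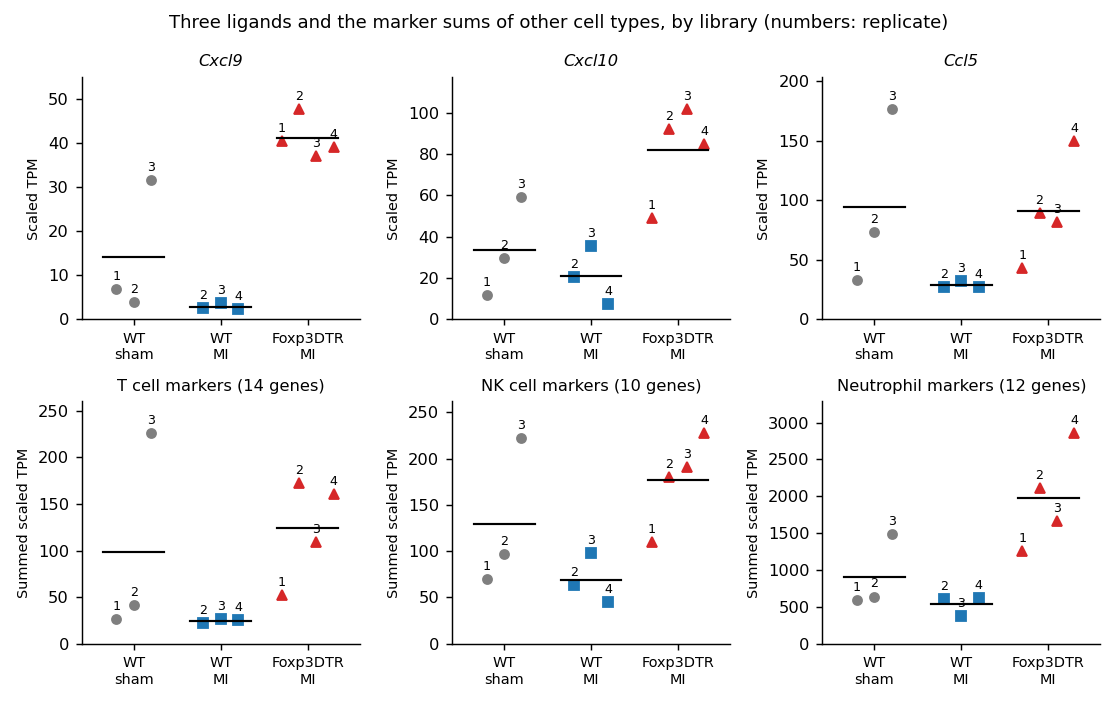
Scaled TPM of Cxcl9, Cxcl10 and Ccl5 (top) and summed scaled TPM of T-cell, NK cell and neutrophil marker genes (bottom) in each library, on linear axes from 0; points are libraries with their replicate number and bars are group means. The 4 Foxp3DTR libraries lie above the 3 libraries of WT mice after MI in all 6 panels, and sham replicate 3 is the highest sham library in each.

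Ccl3 and Ccl4 did not follow Ccl5. Ccl3 measured 29.1, 76.7 and 18.9 scaled TPM after sham surgery, 26.1, 33.2 and 104 in WT mice after MI, and 26.8, 43.6, 33.0 and 35.8 in Foxp3DTR mice. The widest value, 104, was that of replicate 4 of the WT mice after MI, and all groups overlapped. The difference between Foxp3DTR and WT mice after MI was -0.38 (SE 0.50, 95% interval -1.5 to 0.74, adjusted p = 0.737, limma), and without that library it was 0.21. Ccl4 was lower than Ccl3 in every library, at 4.71, 9.22 and 13.5, at 3.65, 5.5 and 20.1, and at 3.85, 12.3, 9.12 and 10.9 scaled TPM in the same order. Its groups overlapped too, with a difference of 0.12 (SE 0.54, 95% interval -1.06 to 1.31, adjusted p = 0.927, limma), and only about 5 to 26 reads stood behind each value. Ccl3 and Ccl4 face away from each other on chromosome 11, at 83647843 to 83649378 on the minus strand and at 83662584 to 83664683 on the plus strand. Ccl5 lies on the same chromosome at 83525779 to 83530518, minus strand, 117324 bp from Ccl3.

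The CCR2 ligands showed no change that passed the test. Ccl2 held 7.64, 34.6 and 27.9 scaled TPM in the sham libraries, 8.31, 21.5 and 43.8 in WT mice after MI, and 22.8, 33.5, 20.3 and 22.6 in Foxp3DTR mice. The means of 23.4 ± 14, 24.5 ± 17.9 and 24.8 ± 5.91 (SD) lay within 1 SD of each other, and Foxp3DTR differed from WT mice after MI by 0.26 (SE 0.55, 95% interval -0.96 to 1.48, adjusted p = 0.837, limma). Ccl7, 8259 bp from Ccl2 (chr11:82035577-82037452) at chr11:82045712-82047523, was near the limit of the data. It was listed at 0 in sham replicates 1 and 2, in replicate 3 of the WT mice after MI and in 3 of the 4 Foxp3DTR libraries, and its highest value, 2.11 scaled TPM, rested on about 3 reads. It was too low for the fit across genes. An exact two-sided permutation test of its log2 values gave p = 0.257 for Foxp3DTR against WT mice after MI, where 4 against 3 libraries allow no p under 0.0571. The same exact test gave p = 0.4 for WT mice after MI against sham surgery, where the smallest p is 0.1.

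Cxcl2 and Cxcl16 were each set apart by the same sham library. Cxcl2 measured 4.98, 61.2 and 1.60 scaled TPM after sham surgery, 6.00, 13.4 and 13.2 in WT mice after MI, and 6.02, 26.1, 6.43 and 5.75 in Foxp3DTR mice. Sham replicate 2 was far above all others, and Foxp3DTR replicate 2 was the highest of its group. Cxcl16 measured 3.29, 15.6 and 5.24, then 4.73, 8.35 and 3.93, then 4.76, 4.48, 3.92 and 4.89 scaled TPM. The highest of these was again sham replicate 2, and the Foxp3DTR libraries lay within 1 TPM of each other. Between Foxp3DTR and WT mice after MI, Cxcl2 differed by -0.19 (95% interval -2.22 to 1.84, adjusted p = 0.934, limma) and Cxcl16 by -0.22 (95% interval -1.11 to 0.67, adjusted p = 0.814, limma). The wide interval of Cxcl2 reaches from 0.215-fold to 3.59-fold, so that its difference was not resolved here in either direction. Sham replicate 2 was the shallowest library and had the highest sum of 16 immediate-early and stress genes, 6461 scaled TPM against 1637 to 4916 in the other libraries, and its part in these values was not tested. Cxcl2 lies at chr5:90903899-90905938 (plus strand) and Cxcl16 at chr11:70454234-70459984 (minus strand).

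**Figure D2:**
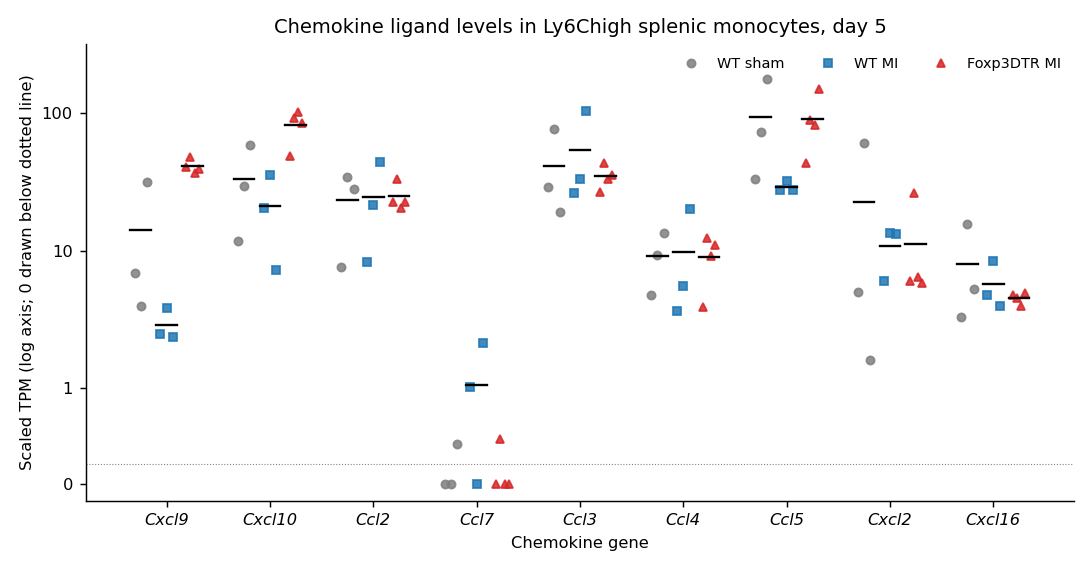
Scaled TPM of the 9 chemokine ligands on a log axis, with values of 0 drawn at the bottom; points are libraries of sham-operated WT mice (circles), WT mice after MI (squares) and Foxp3DTR mice after MI (triangles), and bars are group means. For Cxcl9, Cxcl10 and Ccl5 the triangles lie above all squares, and for the other 6 ligands they overlap.

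Over the 9 members, 8 were tested in Foxp3DTR against WT mice after MI, 1 rose (Cxcl9) and 0 fell by limma at an adjusted p under 0.05. Of all 12938 genes tested, 0.688% were called higher and 0.433% lower in this comparison. Without scaling 488 genes were called higher and 39 lower, in place of 89 and 56. At an unadjusted p under 0.05 there were 3 members, Cxcl9, Cxcl10 and Ccl5, and 17.7% of all genes. The same 3 had libraries that did not overlap and lay higher, as did 9.97% of all genes. All 3 were called with only the 2 groups compared in the fit, where 2.72% of all genes were called higher, and without sham replicates 2 and 3, where 2.66% were. The median change of the tested members was 0.19, and that of all genes 0.0008. In WT mice after MI against sham surgery 0 members were called by limma, as were 0.0% of all genes, and 2 members had an unadjusted p under 0.05, as did 4.64% of all genes. Cxcl9 was lower after MI by -1.51 (SE 0.53, adjusted p = 0.96) and Ccl5 by -1.36 (SE 0.54, adjusted p = 0.96), neither passing the test by limma. Both had lower libraries after MI without overlap, as did 3.73% of all genes. These values leaned on sham replicate 3: without it they were -0.71 and -0.75. Cxcl10 differed by -0.62 (SE 0.60, adjusted p = 0.963, limma) and by -0.08 without that library. The remaining 5 tested ligands had changes from -0.25 to 0.35 after MI.

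Foxp3DTR mice after MI were also set against sham-operated WT mice, a comparison that mixes surgery with genotype and shares its libraries with both others. By limma 0 of 8 tested members were called, against 0.386% of all genes called higher, and 2 had an unadjusted p under 0.05, as did 18.6% of all genes. Cxcl9 differed by 1.95 (SE 0.50, adjusted p = 0.104) without overlap, as did 9.8% of all genes in the higher direction. Without sham replicate 3 this change was 2.74 with an adjusted p of 0.000798 by limma, and without sham replicate 2 it was 1.39 with an adjusted p of 0.34. Cxcl10 differed by 1.49 (SE 0.56, adjusted p = 0.2, limma), with overlap. Ccl5 differed by 0.13 (SE 0.50, adjusted p = 0.909, limma), so that its level in Foxp3DTR mice stood near the sham mean while the level in WT mice after MI stood below it. Without sham replicate 3 the difference was 0.74 (adjusted p = 0.326). The other 5 tested ligands had changes from -0.47 (Cxcl16) to 0.29 (Ccl2).

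**Figure D3:**
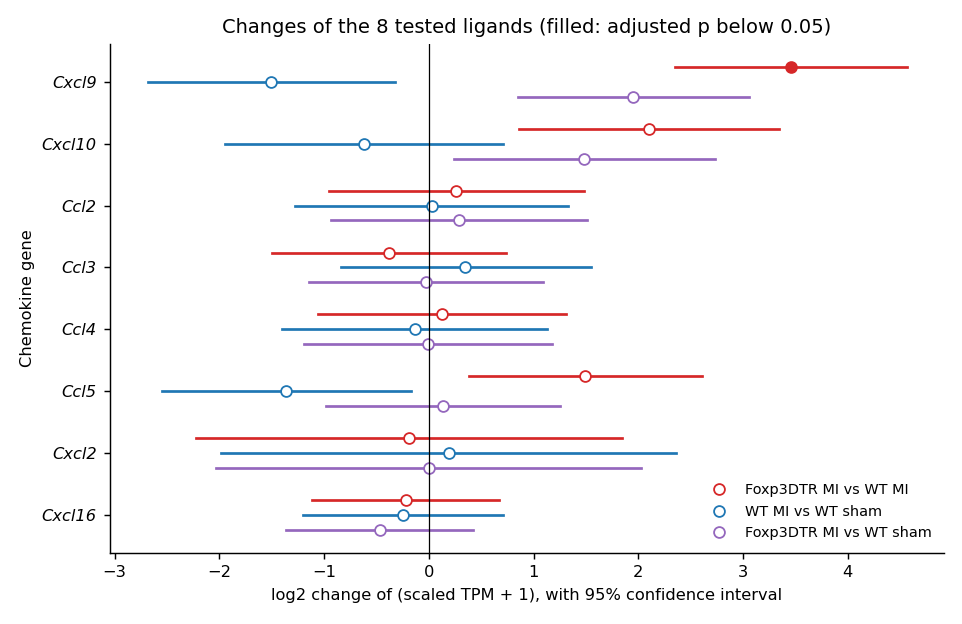
log2 change of scaled TPM + 1 with its 95% interval (limma) for the 8 tested ligands in the 3 comparisons; the filled point passed an adjusted p under 0.05. Only Cxcl9 in Foxp3DTR against WT mice after MI passed, and the intervals of Ccl2, Ccl3, Ccl4, Cxcl2 and Cxcl16 include 0 in all comparisons.

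The order of the levels differed between groups. After sham surgery the means ran from Ccl5 over Ccl3, Cxcl10, Ccl2, Cxcl2, Cxcl9 and Ccl4 to Cxcl16 and Ccl7. In WT mice after MI the order was Ccl3, Ccl5, Ccl2, Cxcl10, Cxcl2, Ccl4, Cxcl16, Cxcl9 and Ccl7. In Foxp3DTR mice it was Ccl5, Cxcl10, Cxcl9, Ccl3, Ccl2, Cxcl2, Ccl4, Cxcl16 and Ccl7. Most neighbours in these orders overlapped between libraries. The exceptions were Cxcl16 over Ccl7 in the sham mice and in the Foxp3DTR mice, Cxcl16 over Cxcl9 and Cxcl9 over Ccl7 in WT mice after MI, and Cxcl10 over Cxcl9 in Foxp3DTR mice. Cxcl9 thus held rank 8 in WT mice after MI and rank 3 in Foxp3DTR mice.

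The CXCR3 ligands took a larger share of the ligand RNA in Foxp3DTR mice. Cxcl9 and Cxcl10 together made 18.3, 11.1 and 27.0% of the summed scaled TPM of the 9 ligands after sham surgery, 23.0, 25.7 and 4.3% in WT mice after MI, and 45.4, 40.0, 47.4 and 35% in Foxp3DTR mice. The Foxp3DTR shares lay above all WT shares. This share is made of the levels given above and adds no separate evidence. The summed level of the 9 ligands overlapped between groups, at 101.4, 304 and 335, at 100.2, 153 and 224, and at 197, 350, 293 and 354 scaled TPM. The ratio of Cxcl10 to Cxcl9 was 1.71, 7.48 and 1.87 in the sham libraries, 8.32, 9.38 and 3.1 in WT mice after MI, and 1.21, 1.93, 2.75 and 2.17 in Foxp3DTR mice. Every Foxp3DTR ratio was below every ratio of WT mice after MI, and the sham ratios overlapped with both.

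**Figure D4:**
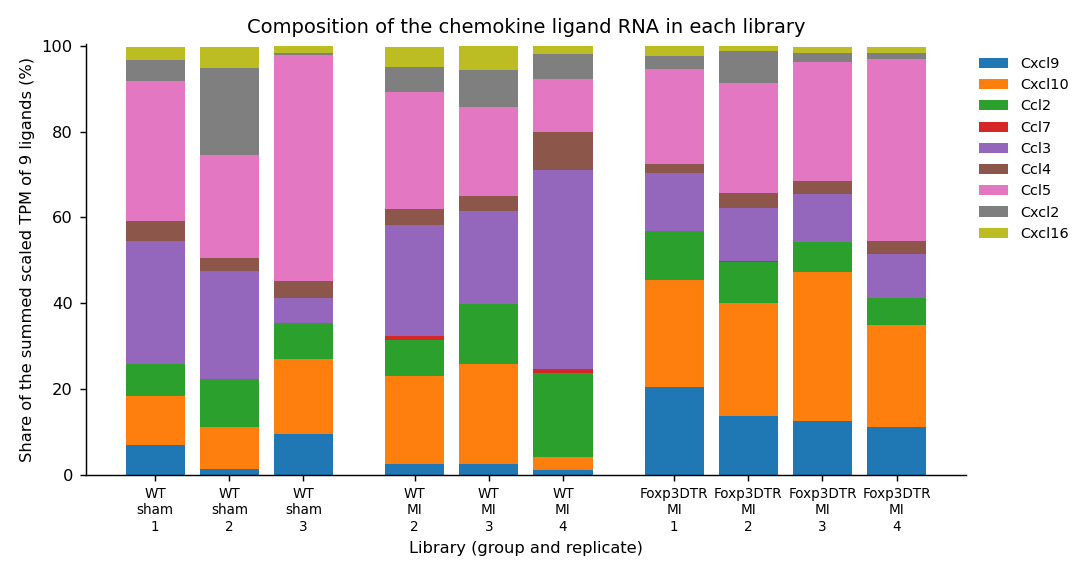
Share of each ligand in the summed scaled TPM of the 9 ligands (%), as stacked bars for the 10 libraries by group and replicate. Cxcl9 and Cxcl10 at the base reach 35 to 47.4% in Foxp3DTR mice and 4.3 to 27.0% in the WT libraries.

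The receptors of these ligands were read from the same cells. Of 8 receptor genes 6 were tested, and by limma 0 were called between Foxp3DTR and WT mice after MI, with 2 at an unadjusted p under 0.05, against 17.7% of all genes. The 6 changes were positive, with a median of 0.56 against 0.0008 for all genes. Cxcr2, the neutrophil receptor of CXCL2, was near 0 in WT mice after MI (0 to 0.278 scaled TPM) and at 2.92 to 7.30 in Foxp3DTR mice, a difference of 2.32 (SE 0.49, adjusted p = 0.0516, limma). It belongs to the neutrophil marker list, which was higher in the same libraries. Ccr1, a receptor of CCL3 and CCL5, held 68.9 to 112 scaled TPM in WT mice after MI and 183 to 249 in Foxp3DTR mice, a difference of 1.26 (SE 0.45, adjusted p = 0.182, limma). Ccr2 was the most abundant receptor, at means of 1365 ± 384, 1377 ± 69.9 and 1424 ± 88.5 scaled TPM (SD, n = 3, 3 and 4).

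In the IFN-γ signalling list, 2 of 7 tested genes rose in Foxp3DTR against WT mice after MI and 0 fell, with a median change of -0.03. Of all genes 0.688% were called higher and 0.433% lower. At an unadjusted p under 0.05 by limma there were 5 of the 7, against 17.7% of all genes. The kinase gene Jak2 rose from 82.4 ± 0.646 (SD, n = 3) to 137 ± 5.33 scaled TPM (n = 4), by 0.73 (SE 0.08, adjusted p = 0.0151, limma). Socs1, a feedback inhibitor of JAK signalling, rose from 5.91 ± 0.843 to 46.4 ± 12.3 scaled TPM, by 2.74 (SE 0.37, adjusted p = 0.0153, limma). The other 5 genes were not called: 1, Irf1, had a positive change, and Ifngr1, Ifngr2, Jak1 and Irf8 had negative ones. Leaving out single libraries ended some of these calls with the direction kept. Jak2 lost its call without replicate 2 of the WT mice after MI (adjusted p = 0.0646) or Foxp3DTR replicate 3 (0.0591). Socs1 lost it without replicate 2 or 3 of the WT mice after MI (0.0646 and 0.0528) or Foxp3DTR replicate 2 or 3 (0.0503 and 0.0667). By limma 0 of these 7 genes were called in WT mice after MI against sham surgery, where 1 had an unadjusted p under 0.05. In Foxp3DTR mice against sham surgery 1, Jak2, was called higher (adjusted p = 0.0209, limma), as were 0.386% of all genes. Without sham replicate 1 or 2, or Foxp3DTR replicate 1, 2 or 3, the adjusted p of Jak2 was 0.0714 to 0.0795.

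By limma 0 of the 10 tested genes of the NF-κB list were called between Foxp3DTR and WT mice after MI and 0 had an unadjusted p under 0.05, with a median change of -0.23. The lowest adjusted p values (limma) were those of Tnf, at 0.56 (SE 0.26, adjusted p = 0.287), and Relb, at -0.52 (SE 0.24, adjusted p = 0.289). The 8 genes of chemokine processing and mRNA decay held 1 that fell, Dpp4, the protease gene whose product trims the ends of several chemokines, CXCL9 and CXCL10 among them. It went from 26.1 ± 3.00 to 15.2 ± 1.91 scaled TPM, a change of -0.74 (SE 0.13, adjusted p = 0.0349, limma), and with any 1 library of either MI group left out the adjusted p was 0.0594 to 0.103. Its call also ended without scaling (-0.51, adjusted p = 0.0814) and without a filter (adjusted p = 0.0643). In this list 4 genes had an unadjusted p under 0.05 by limma (17.7% of all genes), and 0.433% of all genes were called lower. Of 16 immediate-early and stress genes 0 were called by limma, 8 had an unadjusted p under 0.05 (17.7% of all genes) and 13 changes were negative, with a median of -0.73. The lowest adjusted p values (limma) were those of Ier5, at -0.80 (adjusted p = 0.0724), and Btg2, at -0.71 (adjusted p = 0.131). Between WT mice after MI and sham surgery 0 genes of any of these lists were called by limma, and at an unadjusted p under 0.05 there was 1 receptor gene, Cxcr2, and 1 gene of the IFN-γ list, Socs1.

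**Figure D5:**
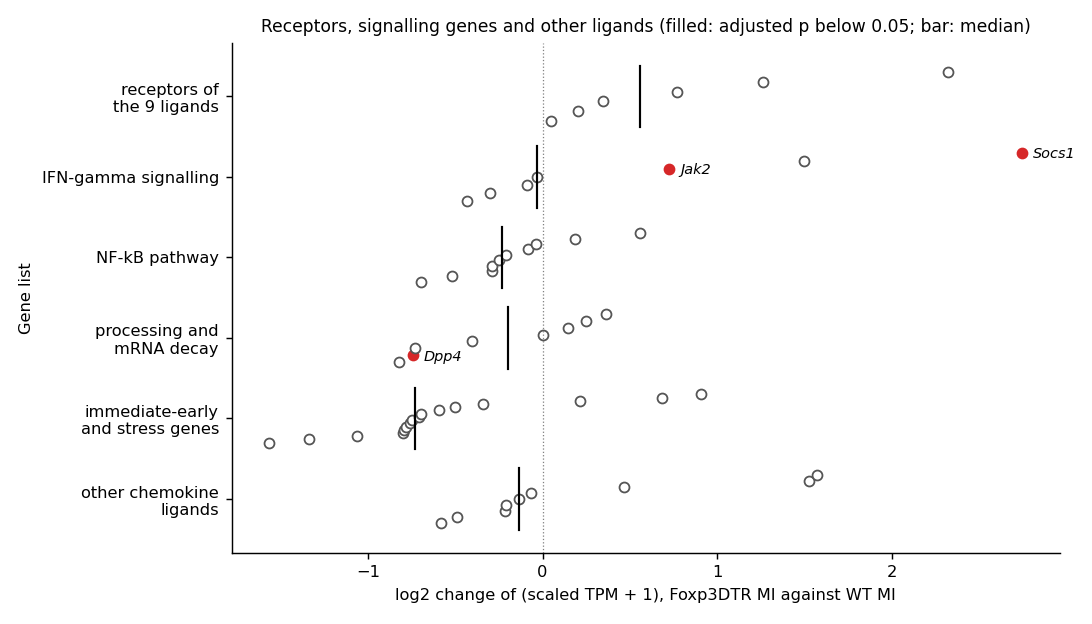
log2 change of scaled TPM + 1 in Foxp3DTR against WT mice after MI for the tested genes of 6 lists; each circle is a gene, filled where the adjusted p was under 0.05 (limma), and the bar is the list's median. Jak2 and Socs1 rose, Dpp4 fell, and no other gene of these lists passed.

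Among 31 other chemokine ligand genes 9 were expressed highly enough to be tested, and by limma 0 were called between Foxp3DTR and WT mice after MI, with 4 at an unadjusted p under 0.05, against 17.7% of all genes. The most abundant chemokine RNAs of these monocytes lay outside the 9 members. Ccl6 had means of 1598 ± 155, 1563 ± 237 and 1124 ± 229 scaled TPM (SD) and Ccl9 of 590.1 ± 85.0, 714 ± 108 and 480.0 ± 97.8, in sham-operated, WT MI and Foxp3DTR MI mice. Their differences between Foxp3DTR and WT mice after MI were -0.49 (SE 0.19, adjusted p = 0.218, limma) and -0.58 (SE 0.18, adjusted p = 0.14, limma). The median change of the 9 tested genes was -0.13. Of 26 other genes within 100 kb of the members on chromosome 11, 17 were tested and 0 were called in any comparison by limma.

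The genes whose pattern over the 10 libraries was most like each ligand were found by the root mean square difference of centred log2 values among 10542 genes, where a smaller value is closer. For Cxcl9 these were Serpina3f, at 0.384, and Serpina3g, at 0.50, with the ligand's own spread at 1.59. Both are serine protease inhibitor genes with near-identical copies, between which reads may be split, so that each is uncertain singly. Serpina3f rose by 3.58 and Serpina3g by 3.91 in Foxp3DTR against WT mice after MI, at adjusted p values of 0.0151 and 0.020 by limma. For Cxcl10, with a spread of 1.18, the closest were Gzma (0.406), the granzyme A gene of cytotoxic lymphocytes and a member of the NK cell marker list, and Serpinb6b (0.454). For Ccl5 they were Il2rb (0.298), a receptor chain of NK cells and T-cells, and Prkcq (0.336), a kinase gene of T-cells, with a spread of 0.939. The ligand nearest to Cxcl9 was Cxcl10, at 0.875, whereas Cxcl10 and Ccl5 were nearest to each other, at 0.773. The remaining ligands were closest to other genes. Ccl2 was closest to Csrnp1 (0.302) and Odc1 (0.404), Ccl3 to Mir466f-3 (0.248) and Plk3 (0.284), and Ccl4 to Socs3 (0.354) and Wipi1 (0.379). Cxcl2 was closest to Plk2 (0.661) and Atf3 (0.664), the largest difference of a closest gene among the 8 tested ligands, and Cxcl16 to Nfatc2 (0.261) and 1810055G02Rik (0.262). Atf3 is a member of the immediate-early list. These likenesses describe 10 libraries that share depth and marker differences.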

How the data were processed

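Ly6Chigh splenic monocytes were profiled by single-end RNA sequencing of 50 bp in 10 libraries. Per the submitters' processing notes, CASAVA 1.4, cutadapt, STAR 2.5 and StringTie 1.3.0 were used with mm10. The authors deposited StringTie gene tables per library with coverage (a signal), FPKM and TPM, and TPM sums to 1e6 in each, so that a few abundant RNAs move all others. The files hold no read counts, so limma took the place of a count test. Rows of a symbol were summed, TPM was divided by median-of-ratios factors, and genes reaching 1 TPM in 3 or more libraries were fitted with limma 3.58.1 (R 4.3.3) on log2(scaled TPM + 1), with group means over all 10 libraries, a variance trend and Benjamini-Hochberg adjustment over 12938 genes; calls are at 0.05. A pseudocount of 1 understates changes of low genes. Without scaling the median gene moved by 0.223, -0.171 and 0.047 in Foxp3DTR against WT mice after MI, WT mice after MI against sham surgery and Foxp3DTR mice against sham surgery. Depth came from the ratio of coverage to FPKM, constant within 1% for 84.9 to 85.2% of entries. Reads behind a value were approximated from coverage and the length of the GENCODE transcript. Each library was taken as 1 animal from its replicate number, and p-values measure the spread between these libraries. Overlapping genes may share reads, since no strand setting was found in the labels or the study's methods. The members and gene lists were chosen with earlier results of these data known. Some genes of the lists are not reported here and are left out of the counts, medians and sums of their lists. The genes named are the 9 members, up to 4 called genes per list (otherwise the 2 of lowest p), the 2 genes most like each member and neighbours within 100 kb where called. Ccr2, Naaa, Sdad1, Art3, Cxcl11, the uncalled IFN-γ list genes and the marker genes given with the marker sums were named after their values were seen. The script was tested on simulated data. Alternatives were other scalings, FPKM, pseudocounts of 0.1 and 5, no filter or one at 5 TPM, only the 2 groups compared, no variance trend, array weights, a replicate block and each library left out. One further setting, without sham replicates 2 and 3, was chosen after seeing the data.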

Additional observations from a re-analysis of the deposited data

Results flagged for a closer look

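In the group of 4 Foxp3DTR libraries, replicate 2 lay far from the others for Cxcl2, by the gap to its nearest neighbour divided by the range of the group. Cxcl2 was 26.1 scaled TPM in it against 5.75 to 6.43 in the other 3. Ccl7 met the same measure only because it was listed at 0 in the other 3, so that the 0.421 scaled TPM in replicate 2, about 1 read, fixed the outcome, and nothing is read from it. Of the 9 ligands tested in this way, chance flags about 1 in 20 groups, and groups of 3 were not tested.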

How the results depend on the processing

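In Foxp3DTR against WT mice after MI, 1 ligand was called higher. The count was 2 without scaling (Cxcl9, Cxcl10), 0 without a filter (Cxcl9 at an adjusted p of 0.0548), and 3 (Cxcl9, Cxcl10, Ccl5) with only the 2 groups compared, with a replicate block and without sham replicates 2 and 3. It ranged from 0 to 1 when each library was left out, and 0 ligands were called lower under any alternative. The share of all genes called higher moved too, from 0.688% to 3.77% without scaling, 0.0907% without a filter and 0.526% with the block. With each library left out it was 0% (without replicate 2 of the WT mice after MI) to 1.97% (without sham replicate 2). Cxcl9 kept its direction in all 22 alternatives, from 2.55 (pseudocount 5) to 3.82 (pseudocount 0.1). Deviations of libraries with the same number correlated at -0.19 to 0.189. Libraries with different numbers were not compared in this way, so that whether the numbers pair the samples was not settled. The block gave 3.53 for Cxcl9, 2.39 for Cxcl10 and 1.88 for Ccl5. It ended the calls of Dpp4 (adjusted p = 0.0867) and, against sham surgery, Jak2 (0.0674). The latter call was also lost with only the 2 groups compared (0.0524). For Foxp3DTR mice against sham surgery the count of higher ligands was 0 to 1 with each library left out, where 0.0155 to 3.23% of all genes were called higher. In the comparison of WT mice after MI with sham surgery it was 0 throughout, where 0 to 0.0081% of all genes were.

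Changes of sign were limited to uncalled values. In Foxp3DTR against WT mice after MI, Cxcl2 was 0.033 without scaling and 0.014 with the block, and leaving out each library gave -0.33 to 0.81 for Ccl2, -0.76 to 0.21 for Ccl3, -0.32 to 0.77 for Ccl4 and -0.41 to 0.051 for Cxcl16. In WT mice after MI against sham surgery, Ccl2 was -0.15 without scaling and -0.44 with the block, Ccl3 -0.02 and Cxcl2 -0.014 with the block, Cxcl2 -0.081 at a pseudocount of 5 and Cxcl16 0.17 with array weights. Leaving out each library gave -0.60 to 0.62 for Ccl2, -0.24 to 0.90 for Ccl3, -0.78 to 0.31 for Ccl4, -0.66 to 0.31 for Cxcl16 and -0.78 to 1.51 for Cxcl2. In Foxp3DTR mice against sham surgery, Ccl3, Ccl4 and Cxcl2 were 0.031, 0.041 and 0.066 without scaling and 0.25, 0.024 and 0.81 with array weights. Cxcl2 was also 0.054 with quantile normalization, 0.13 at a pseudocount of 0.1 and 0.004 with only the 2 groups compared, and Ccl5 was -0.058 with the block. Leaving out each library gave -0.34 to 0.68 for Ccl2, -0.46 to 0.53 for Ccl3, -0.38 to 0.31 for Ccl4, -0.45 to 0.74 for Ccl5, -0.89 to 0.088 for Cxcl16 and -0.96 to 1.33 for Cxcl2.

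The causes of these changes were not tested. Groups of 3 and 4 libraries and the few reads behind Ccl4, Ccl7 and, in WT mice after MI, Cxcl9 limit what can be resolved.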
